A study of Mus musculus with 10 samples.

Results

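The 10 genes described here encode signalling proteins of 3 cytokine families: interleukin 1 (Il1a, Il1b, Il1rn, Il1r2, Il33), tumour necrosis factor (Tnf) and interleukin 6 (Il6, Il11, Lif, Osm). They were chosen by name, with earlier results of these data known, and the values of a gene's transcripts were added up. The genes are the rows of a mouse transcript table whose RefSeq transcript belongs to those symbols. They are 10 of the 23488 gene rows of the table and comprise 14 transcripts, with several transcripts for Il1rn, Il33 and Lif and 1 for each of the other 7.

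The study sequenced RNA from the colon of C57BL/6 mice in an injury-driven model of colon cancer, and asked what aspirin (ASA), curcumin (CUR) or both in the diet change there. Azoxymethane (AOM) is a carcinogen given by injection, and dextran sulfate sodium (DSS) is a polymer that damages the colon lining when drunk. Model mice got subcutaneous AOM, 10 mg/kg, when 6 weeks old, then 1.2% DSS for 7 days beginning a week later, and ate the AIN-93M diet. The ASA, CUR and ASA+CUR mice got the same AOM and DSS with 0.02% ASA, 2% CUR, or 0.01% ASA plus 1% CUR in that diet, and Control mice got saline, no DSS and plain AIN-93M diet. Each of the 5 groups has 2 libraries, numbered 0 and 1, and whether a pair came from separate mice is not stated in the labels. The p-values therefore reflect the spread between libraries, which may be technical. The labels name the Control tissue as colonic tissue and the tissue of the other 4 groups as tumor samples, while the protocol describes colon frozen once the proximal end and palpable tumours were gone. Values are FPKM, fragments scaled by transcript length and by library size. Fragment totals are unknown, and the FPKM sum per library lay between 515959 and 720895.

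IL-1 alpha and IL-1 beta bind a common receptor that activates the transcription factor NF-kB, and are restrained by the receptor antagonist encoded by Il1rn and by the decoy receptor encoded by Il1r2. IL-33 is a nuclear protein released by damaged barrier and stromal cells that signals through the receptor encoded by Il1rl1. TNF, made mainly by macrophages and T cells, acts through 2 receptors that also lead to NF-kB, and the IL-6 family shares the receptor subunit gp130 and activates STAT3. In the injured colon these cytokines are known for recruiting white blood cells and for driving repair and growth of the epithelium.

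The sequences just before the start sites of Il33, Il1rn, Il11 and Il6 are shown because Il33 and Il1rn each have alternative starts that behaved differently, and because Il11 and Il6 varied most among the AOM/DSS libraries. They are RefSeq sequences of GRCm38.p6, 250 bases upstream of the annotated start, 5′ to 3′, with matches to the AP-1 motif (TGANTCA), the NF-kB motif and the TATA box (TATAAA) in capitals.
Il33 upstream start, chr19:29924863-29925112, plus strand: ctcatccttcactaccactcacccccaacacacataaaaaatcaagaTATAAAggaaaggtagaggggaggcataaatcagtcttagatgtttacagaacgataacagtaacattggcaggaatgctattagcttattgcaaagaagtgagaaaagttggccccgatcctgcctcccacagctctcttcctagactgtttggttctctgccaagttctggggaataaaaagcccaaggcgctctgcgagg
Il33 inner start, chr19:29945540-29945789, plus strand: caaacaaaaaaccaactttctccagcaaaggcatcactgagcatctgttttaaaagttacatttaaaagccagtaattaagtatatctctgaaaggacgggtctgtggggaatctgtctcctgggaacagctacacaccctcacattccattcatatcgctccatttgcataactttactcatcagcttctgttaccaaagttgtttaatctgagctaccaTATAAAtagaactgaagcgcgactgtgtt
Il1rn upstream start, chr2:24336610-24336859, plus strand: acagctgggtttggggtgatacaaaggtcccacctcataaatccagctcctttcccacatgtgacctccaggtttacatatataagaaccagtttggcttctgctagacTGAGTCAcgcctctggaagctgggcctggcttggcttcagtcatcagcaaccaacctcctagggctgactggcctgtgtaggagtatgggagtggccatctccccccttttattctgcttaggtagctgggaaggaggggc
Il1rn inner start, chr2:24345041-24345290, plus strand: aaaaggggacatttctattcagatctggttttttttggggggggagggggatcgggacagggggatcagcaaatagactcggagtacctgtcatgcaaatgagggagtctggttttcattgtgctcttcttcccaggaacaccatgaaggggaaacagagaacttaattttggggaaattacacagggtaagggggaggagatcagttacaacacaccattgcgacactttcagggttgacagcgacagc
Il11, chr7:4778142-4778391, minus strand: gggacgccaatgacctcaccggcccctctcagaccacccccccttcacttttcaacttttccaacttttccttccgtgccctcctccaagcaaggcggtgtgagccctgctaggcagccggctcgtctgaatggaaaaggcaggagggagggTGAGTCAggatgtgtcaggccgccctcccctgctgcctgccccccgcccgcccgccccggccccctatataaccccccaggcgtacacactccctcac
Il6, chr5:30012864-30013113, plus strand: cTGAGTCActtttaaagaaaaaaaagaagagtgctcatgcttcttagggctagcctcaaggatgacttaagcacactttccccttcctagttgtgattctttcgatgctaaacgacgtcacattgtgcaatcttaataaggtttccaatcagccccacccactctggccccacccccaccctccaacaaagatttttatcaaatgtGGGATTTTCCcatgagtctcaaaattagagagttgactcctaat
The inner window of Il1rn shown is the one whose start site lies 3 bases from the first base of NM_001159562, and the secreted form NM_001039701 described further on begins 19 bases downstream of that start site.
The motif search covered windows of 300 bases, 250 before and 50 after the start, on both strands, in 13 windows of 9 members. Osm had none. An AP-1 match lay in 5 of the 13 windows, those of 5 of the 9 members (Il1a, Il1rn, Il6, Il11, Lif), against 7.81% of the 32851 windows of all genes. A TATA box match lay in 6 of the 13 windows, in 5 of the 9 members (Il1a, Il1b, Il1rn, Il33, Tnf), against 13.6% of all windows. An NF-kB match lay in 2 windows (Il6 and Lif), against 8.46%. STAT (TTCNNNGAA) matched for Il1r2 alone, against 8.3% of all windows, and C/EBP (TTGCNNAA) for Il6 and Il33, against 10.8%. Not every window lies at the start of the transcript measured. The start site of the Il1r2 window lies 1395 bases downstream of the first base of NM_010555. The Lif window lies at the upstream start, 9527 bases before the first base of NM_001039537, which held most of the FPKM of Lif. Members such as Il1rn, Il33 and Il11 have more than 1 window, which gives them more chances of a match than a single window has. The matches did not overlap each other. The TATA box match of Il1rn lies in a further inner window that is not printed, at bases 14 to 19 after the annotated start. The inner start of Il33 has its TATA box match at bases -29 to -24 counted from the start, and the upstream start has its match much farther away, at -203 to -198. In Tnf, Il1b and Il1a the TATA box match begins 29, 31 and 32 bases before the start. A match is a run of letters and not evidence of binding.

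All 10 genes were higher in each of the 8 AOM/DSS libraries than in both Control libraries, a separation that 20.1% of the 14061 genes tested showed. The smallest gap between the lowest AOM/DSS library and the highest Control library was 1.75-fold, for Il1rn, and the largest was 19.5-fold, for Il1a. In Model against Control 7 of the 10 were called higher and none lower (limma, adjusted p under 0.05), against 6.84% of all genes tested. The median log2 change of the 10 was 1.78, beside 0.02 over all genes tested. Changes are on the scale of log2(FPKM + 1), which understates the change of low genes. In the diet groups against Control, 9 of 10 rose in ASA (9.78% of all genes were called higher), 8 in CUR (6.67%) and 9 in ASA+CUR (13.1%), and in the mean of the 4 AOM/DSS groups 9 rose (14.6%). No member fell in any of these comparisons. They share the Control libraries, so they are not independent of each other. When the libraries of the groups compared were left out in turn, Il1b, Il1r2 and Tnf passed each time in all of these comparisons, Il1a did so in all but Model, Lif in ASA and Il11 in ASA+CUR, and the other calls were lost at least once. Without Control replicate 0, 3 members passed in Model, 5 in ASA, 4 in CUR, 5 in ASA+CUR and 5 in the mean. The calls over all genes were lower in the same fits, at 346, 799, 380, 1340 and 1308, against 2276, 3163, 2110, 4148 and 4435 with all libraries. In 7 members both Control libraries were below 1 FPKM, so these entered the test only through their values in AOM/DSS libraries, a condition that selects genes higher there. The tissue is a mixture of cells, and fewer cells of a type and less RNA per cell cannot be told apart in it.

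**Figure D1:**
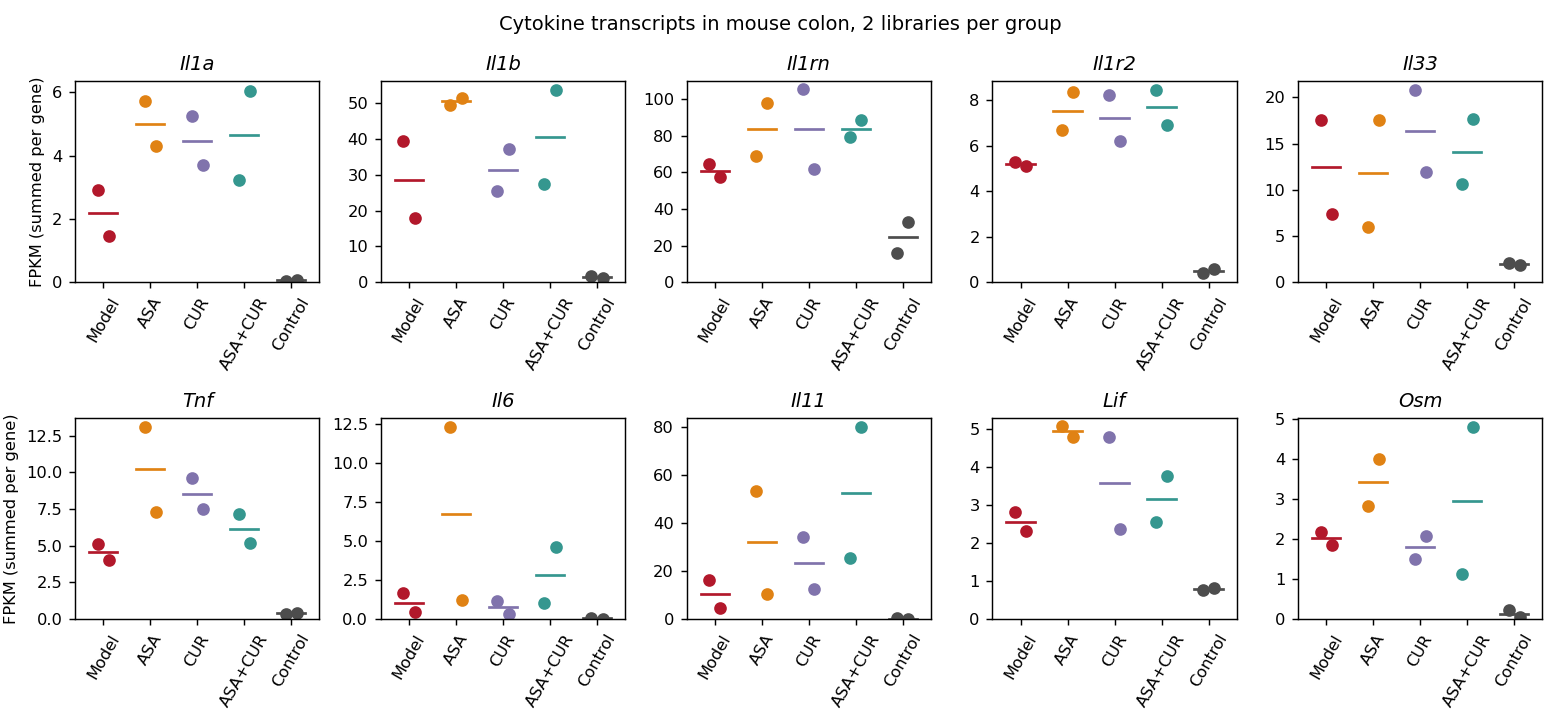
Level of each cytokine gene in FPKM (vertical axis, linear, from 0, a scale per gene) in the 2 libraries of the Model, ASA, CUR, ASA+CUR and Control groups; points are libraries and horizontal lines are group means. In every gene all 8 AOM/DSS libraries lie above both Control libraries, and Il6 and Il11 have the widest spread among the AOM/DSS libraries.

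Il1b, which encodes the secreted agonist IL-1 beta, had 39.3 and 17.9 FPKM in the Model libraries, 49.4 and 51.5 in ASA, 25.5 and 37.3 in CUR, 27.5 and 53.5 in ASA+CUR, and 1.76 and 1.17 in Control. The Model replicates differed more than the ASA replicates did, and no AOM/DSS library came near Control. The log2 change was 3.50 ± 0.41 (SE) in Model against Control (limma adjusted p = 0.00209) and lay between 3.70 and 4.39 in the 3 diet groups. Il1a, which encodes the other agonist, a cell-associated alarm signal, had 2.91 and 1.46 FPKM in Model, 5.72 and 4.29 in ASA, 5.26 and 3.69 in CUR, 3.22 and 6.05 in ASA+CUR, and 0.0452 and 0.0747 in Control. It was close to 0 in Control and the Model libraries were the lowest of the AOM/DSS libraries. Its log2 change in Model against Control was 1.55 ± 0.32 (limma adjusted p = 0.0187). Both genes lie on chromosome 2 (GRCm38.p6), Il1a at 129299609-129310186 and Il1b at 129364569-129371164, with 54382 bases and 2 other genes between them.

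Il1rn, which encodes the antagonist that occupies the IL-1 receptor without signalling, was the member with the highest mean level in all 5 groups. It had 64.5 and 57.4 FPKM in Model, 69.0 and 97.7 in ASA, 105 and 61.6 in CUR, 79.0 and 88.3 in ASA+CUR, and 16.2 and 32.9 in Control. Its values overlapped those of no other member in Model, ASA, CUR and Control. Its log2 change was 1.36 ± 0.36 in Model against Control (limma adjusted p = 0.0388) and 1.68 ± 0.28 in the mean of the 4 AOM/DSS groups (limma adjusted p = 0.00365). The Model change was 0.87 and did not pass without Control replicate 0 (limma adjusted p = 0.223), and it did not pass without Model replicate 0 (0.132), without Model replicate 1 (0.11) or with the replicate number as a block (0.0536). The level of Il1rn was 1.64 and 3.20 times that of Il1b in Model, 1.40 and 1.90 times in ASA, 4.13 and 1.65 times in the CUR group, and 2.87 and 1.65 times in ASA+CUR, against 9.19 and 28.1 times in Control. Il1rn summed over its transcripts exceeded Il1b in all 10 libraries, and the AOM/DSS and Control ratios did not overlap. Most of that sum was the intracellular form described further on. The secreted form alone was below Il1b in every library, with 7.70 and 5.07 FPKM in Model and 0 and 0.297 in Control.

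Il1r2, which encodes a receptor that captures IL-1 without passing on a signal, had 5.27 and 5.11 FPKM in Model, 6.67 and 8.35 in ASA, 8.23 and 6.23 in CUR, 8.44 and 6.93 in ASA+CUR, and 0.418 and 0.576 in Control. It varied least of the 10 among the AOM/DSS libraries, where the highest value was 1.65 times the lowest. The log2 change was 2.05 ± 0.20 in Model against Control (limma adjusted p = 0.00113), the smallest adjusted p of the members in that comparison. Il1r2 lies on chromosome 1 at 40084692-40125230.

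**Figure D2:**
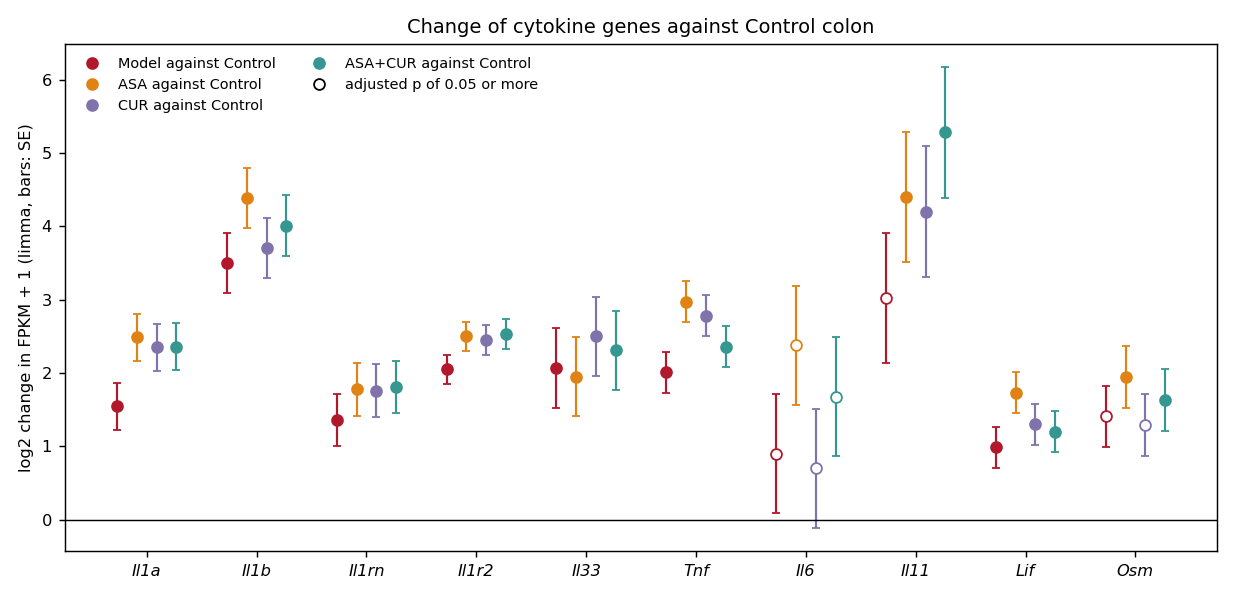
Change of each gene on the log2(FPKM + 1) scale (vertical axis) in Model, ASA, CUR and ASA+CUR against Control; points are limma estimates, bars are standard errors, and open points have an adjusted p of 0.05 or more. All estimates are above 0, Il1b and Il11 have the highest points, and the open points belong to Il6, Il11 and Osm.

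Il33, the alarm cytokine of barrier tissue, had 17.5 and 7.38 FPKM in Model, 6.03 and 17.6 in ASA, 20.8 and 11.9 in CUR, 10.6 and 17.6 in ASA+CUR, and 2.1 and 1.82 in Control. Its replicates differed widely inside each AOM/DSS group while the Control pair was close. The log2 change in Model against Control was 2.07 ± 0.54 (limma adjusted p = 0.0372), and it was 2.21 ± 0.43 in the mean of the 4 AOM/DSS groups (limma adjusted p = 0.0065). Without Model replicate 0 the Model change was 1.5 and did not pass (adjusted p = 0.161), nor did it pass without Control replicate 0 (0.152) or Control replicate 1 (0.192).

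The rise of Il33 lay in its inner transcript. Il33 has an upstream start at chr19:29925114 (NM_133775) and an inner start 20676 bases further in, at chr19:29945790 (NM_001164724). Both transcripts have 8 exons and the same coding sequence of 266 codons, so they differ in the RNA before the coding part and not in the protein. The inner transcript had 15.3 and 5.55 FPKM in Model, 6.03 and 16.8 in ASA, 18.98 and 7.70 in CUR, 8.80 and 16.3 in ASA+CUR, and 0.000158 and 0.00017 in Control. The upstream transcript had 2.21 and 1.82 FPKM in Model, 0.000779 and 0.726 in ASA, 1.83 and 4.23 in CUR, 1.80 and 1.30 in ASA+CUR, and 2.1 and 1.82 in Control. By these estimates the AOM/DSS tissue carried mainly the inner form and Control colon almost only the upstream form. The AOM/DSS levels of the upstream form ran both above and below those of Control. In the fit over 17166 transcripts the inner form changed by 3.57 ± 0.49 on the log2 scale in the mean of the 4 AOM/DSS groups against Control (limma adjusted p = 0.0022), while the upstream form changed by -0.25 ± 0.29 and did not pass (limma adjusted p = 0.573).

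The inner form made up 64.5% to 100% of Il33 in the AOM/DSS libraries (mean 86.2% ± 11.7, SD, n = 8), against 0.0075% and 0.00934% in the Control libraries. This share was examined after its values were seen, and the exact permutation test over libraries gave a two-sided p of 0.0222, the smallest that 45 arrangements allow. A share above both Control libraries in all 8 AOM/DSS libraries was found in 4.95% of 7906 transcripts. A switch of the highest transcript between all 8 AOM/DSS libraries and both Control libraries occurred in 30 of 3050 genes with several transcripts (0.984%). Of the 3 members with several transcripts, Il33 showed it and Il1rn and Lif did not. The split between transcripts is the authors' model estimate, and values such as 0.000158 FPKM are estimates near 0 rather than measured levels. The inner and upstream forms of Il33, of 2544 and 2537 bases, share 2475 exon bases, so the split rests on few bases.

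**Figure D3:**
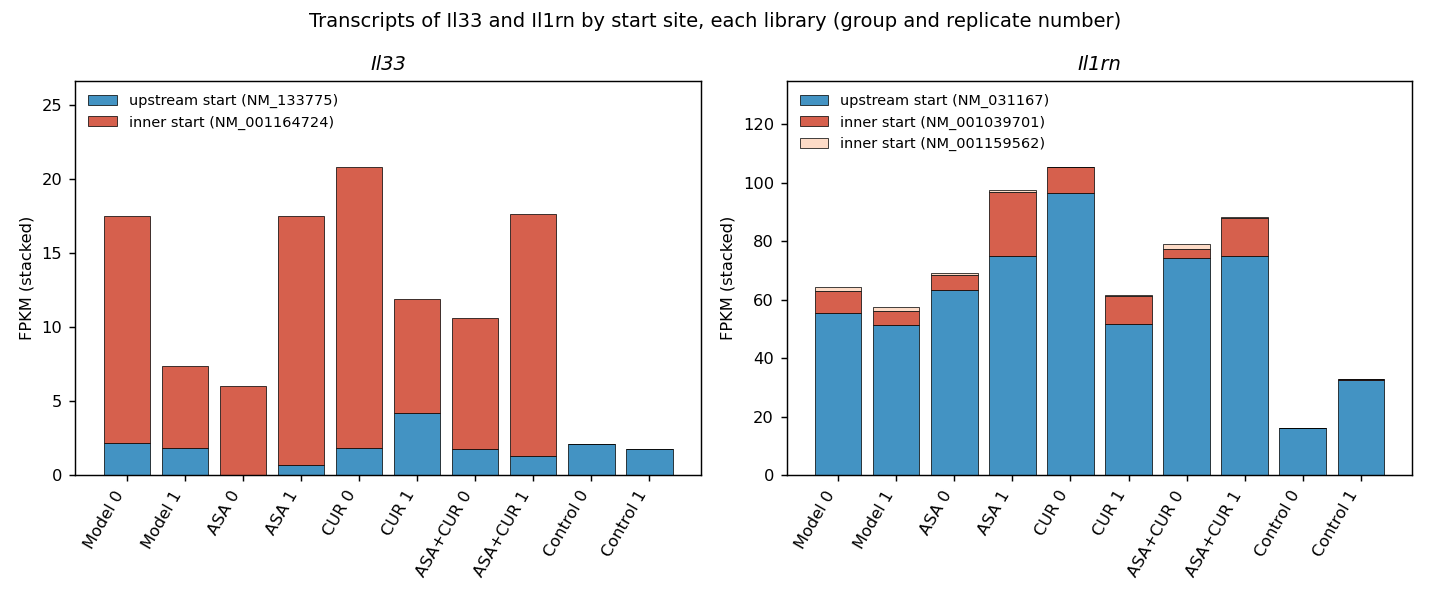
FPKM of the transcripts of Il33 (left) and Il1rn (right), stacked per library (vertical axis, linear, from 0; libraries by group and replicate number); blue is the transcript from the upstream start and the red shades are transcripts from inner starts. The AOM/DSS bars of Il33 are mainly red and its Control bars blue, whereas Il1rn is mainly blue in all 10 libraries with a red part in the AOM/DSS libraries.

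Il1rn also gained transcript from an inner start, without losing its main form. Its upstream start at chr2:24336853 gives NM_031167, with 159 codons, the intracellular antagonist that epithelia are known to make, and an inner start 8457 bases further in gives NM_001039701, with 178 codons, the secreted antagonist that carries a signal peptide. The secreted form had 7.70 and 5.07 FPKM in Model, 5.17 and 21.8 in ASA, 8.91 and 9.39 in the CUR group, and 3.15 and 12.9 in ASA+CUR. In Control it was listed at 0 in replicate 0 and had 0.297 FPKM in replicate 1. The intracellular form had 55.5 and 51.3 FPKM in Model, 63.4 and 75.1 in ASA, 96.4 and 51.8 in CUR, 74.2 and 75.1 in ASA+CUR, and 16.2 and 32.6 in Control. It remained the higher form in every library. In the mean of the 4 AOM/DSS groups against Control the secreted form changed by 2.99 ± 0.54 on the log2 scale (limma adjusted p = 0.00701) and the intracellular form by 1.49 ± 0.28 (limma adjusted p = 0.00807). The secreted form had 3.98% to 22.4% of the gene's FPKM in the AOM/DSS libraries (mean 11.6% ± 5.74, SD, n = 8), against 0% and 0.903% in Control, and the share did not pass the exact permutation test (two-sided p = 0.0667, where 0.0222 is the smallest possible). A further inner transcript of 162 codons, NM_001159562, stayed at or below 1.70 FPKM.

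The receptor of IL-33 was higher as well. Il1rl1, also called ST2, had 61.5 and 23.3 FPKM in Model, 99.3 and 79.3 in ASA, 168 and 68.2 in CUR, 88.2 and 192 in ASA+CUR, and 3.66 and 1.56 in Control (log2 change 3.50 ± 0.60 in Model against Control, limma adjusted p = 0.00897). Its shorter transcript of 337 codons, NM_010743, encodes the soluble receptor that captures IL-33, and its transcript of 567 codons, NM_001025602, the receptor in the membrane. The soluble form had 55.6 and 18.6 FPKM in Model, 89.2 and 69.95 in ASA, 156 and 63.5 in CUR, 82.0 and 179 in ASA+CUR, and 3.0 and 1.26 in Control. The membrane form had 5.90 and 4.72 FPKM in Model, 10.1 and 9.32 in ASA, 11.6 and 4.70 in CUR, 6.26 and 12.9 in ASA+CUR, and 0.654 and 0.3 in Control. The soluble form was higher than the membrane form in all 10 libraries.

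Tnf, which encodes the founding member of its family, lies on chromosome 17 at 35199367-35202007. It had 5.11 and 4.04 FPKM in Model, 13.1 and 7.30 in ASA, 9.60 and 7.49 in CUR, 7.12 and 5.19 in ASA+CUR, and 0.338 and 0.419 in Control. The Model libraries had the lowest values among the AOM/DSS libraries and all of these were at least 9.63 times the higher Control library. The log2 change was 2.01 ± 0.28 in Model (limma adjusted p = 0.00392), 2.97 ± 0.28 in ASA, 2.78 ± 0.28 in the CUR group and 2.36 ± 0.28 in the ASA+CUR group against Control, each of which passed.

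Il6, the founding member of its family, was low and uneven. It had 1.64 and 0.432 FPKM in Model, 12.3 and 1.22 in ASA, 1.15 and 0.342 in CUR, 0.998 and 4.63 in ASA+CUR, and 0.0893 and 0 in Control. A single ASA library held the highest value, which was 35.9 times the lowest AOM/DSS value. It was the member that passed in no comparison with Control, with log2 changes of 0.90 ± 0.81 in Model (limma adjusted p = 0.497), 2.38 ± 0.81 in ASA (0.0718), 0.70 ± 0.81 in the CUR group (0.607) and 1.68 ± 0.81 in ASA+CUR (0.153). With 0.1 in place of 1 added before taking logs, which gives low values more weight, Il6 passed in ASA (4.88, limma adjusted p = 0.0221), in ASA+CUR (4.05, 0.0354) and in the mean of the 4 AOM/DSS groups (3.54, 0.0225). Without ASA replicate 1 the ASA change was 3.67 and passed (limma adjusted p = 0.0147), and without ASA replicate 0 it was 1.09 and did not (0.299). The mean of the 4 AOM/DSS groups passed without ASA replicate 1 as well (1.74, limma adjusted p = 0.0224).

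Il11, a gp130 cytokine known to be made by stromal cells in response to injury, had 16.3 and 4.4 FPKM in Model, 53.3 and 10.6 in ASA, 34.3 and 12.6 in CUR, 25.3 and 80.1 in ASA+CUR, and 0.368 and 0.038 in Control. Every AOM/DSS library was at least 12.0 times the higher Control library, and within each AOM/DSS group 1 library was several times the other. The log2 change was 3.02 ± 0.89 in Model and did not pass (limma adjusted p = 0.0566). It was 4.4 ± 0.89 in ASA (0.0117), 4.20 ± 0.89 in the CUR group (0.0182) and 5.28 ± 0.89 in ASA+CUR (0.0046), which passed. The Model change did pass with 0.1 in place of 1 added before taking logs (5.08, limma adjusted p = 0.0168). It also passed with 0.5 added (limma adjusted p = 0.0319) and in a fit on the Model and Control libraries alone (0.0208). It did not pass with other filters, scalings and variance models (limma adjusted p = 0.0517 to 0.0827). Nor did it pass with the highest transcript in place of the sum (0.0604) or the replicate number as a block (0.0523). When the Model and Control libraries were left out in turn, the Model change was 2.18 to 3.86. Il11 exceeded Il6 in each library, by 9.98 and 10.2 times in Model, 4.34 and 8.69 times in ASA, 29.9 and 36.9 times in CUR, 25.3 and 17.3 times in ASA+CUR, and 4.12 times in Control replicate 0. In Control replicate 1 Il6 was listed at 0. In each of the 4 AOM/DSS groups Il11 had the highest mean level of the IL-6 family members, and in Control Lif had.

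Lif and Osm, neighbours on chromosome 11 with 16541 bases and no gene between them, encode gp130 cytokines known for acting on stem cells and on stromal cells. Lif had 2.82 and 2.31 FPKM in Model, 5.08 and 4.8 in ASA, 4.78 and 2.36 in CUR, 2.56 and 3.77 in ASA+CUR, and 0.762 and 0.821 in Control. Both ASA libraries and CUR replicate 0 had the highest values. Its log2 change was 0.99 ± 0.28 in Model against Control (limma adjusted p = 0.0469), a call lost when any of the 4 Model and Control libraries was left out (0.107 to 0.211). Osm had 2.166 and 1.85 FPKM in Model, 2.82 and 4.0 in ASA, 1.5 and 2.08 in CUR, 1.12 and 4.78 in ASA+CUR, and 0.235 and 0.0388 in Control. It passed in ASA (1.95 ± 0.42, limma adjusted p = 0.0149) and ASA+CUR (1.63 ± 0.42, 0.0235), and did not pass in Model (1.41 ± 0.42, 0.0586) or CUR (1.29 ± 0.42, 0.0783). The Model change did pass with 0.1 in place of 1 added before taking logs (3.29, limma adjusted p = 0.0177). It also passed in a fit on the Model and Control libraries alone (limma adjusted p = 0.0123). Without ASA+CUR replicate 1 the ASA+CUR change was 0.90 and did not pass (limma adjusted p = 0.0953), and it also did not pass without Control replicate 0 (0.0943) or Control replicate 1 (0.128). Lif is read from 2 starts, and the inner form NM_001039537, of 158 codons, held 59.0% to 93.7% of its FPKM in the AOM/DSS libraries and 100% and 74.7% in Control.

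Per length, the order of the members was not the same in AOM/DSS and Control tissue. In Model the means ran from Il1rn (60.9 FPKM) over Il1b (28.6), Il33 (12.4), Il11 (10.4), Il1r2 (5.19), Tnf (4.58), Lif (2.56), Il1a (2.18) and Osm (2.01) to Il6 (1.03). In that order the libraries of Il33 and Il11, of Il11 and Il1r2, of Il1r2 and Tnf, of Lif and Il1a, and of Il1a and Osm overlapped. In Control Il1rn (24.5), Il33 (1.96), Il1b (1.47) and Lif (0.792) did not overlap their neighbours, whereas Il1r2, Tnf, Il11, Osm, Il1a and Il6, at 0.497 to 0.0446 FPKM, overlapped from each to the next. Il11 stood in the fourth place in Model, the third in ASA and CUR, and the second in ASA+CUR, where it overlapped both Il1rn and Il1b, against the seventh in Control. The 10 genes summed to 158 and 102 FPKM in Model, 223 and 207 in ASA, 216 and 146 in CUR, 166 and 271 in ASA+CUR, and 22.3 and 37.8 in Control.

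Receptors and targets of these cytokines were read from 6 lists. In the mean of the 4 AOM/DSS groups against Control, where 14.6% of all genes tested were called higher and 16.9% lower, 7 of 15 IL-1 family receptors and adaptors rose and none fell (median log2 change 0.41, beside 0.02 over all genes). In Model against Control, where 6.84% of all genes tested were called higher, 1 of the 15 rose, Il1rl1. Those that rose in the mean include Il1rl1, Il1rl2, which encodes the IL-36 receptor, and Il18bp, which encodes a soluble trap for IL-18. Of 10 further IL-1 family ligands and inflammasome genes, 4 rose and 3 fell in the mean (median 0.40), and 0 of 10 were called in Model against Control. The 3 that fell were Il18, Casp1, the protease that cuts IL-1 beta and IL-18, and Pycard, the inflammasome adaptor. Their changes were -1.20 ± 0.22 (limma adjusted p = 0.00538), -0.93 ± 0.19 (0.00853) and -1.20 ± 0.26 (0.0102), in that order. Il18 had 63.4 FPKM in Model, 49.7 in ASA, 46.6 in the CUR group and 41.9 in the ASA+CUR group, against 114 in Control. Nlrp3, an inflammasome sensor, rose by 1.22 ± 0.26 (limma adjusted p = 0.0106), and the inflammasome genes Nlrc4 and Aim2 were called higher as well.

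In Model against Control 2 of 12 genes of TNF release and signalling rose, where 6.84% of all genes did. In the mean 5 of the 12 rose and none fell (median 0.26), beside the same 14.6% and 16.9% of all genes. Tnfrsf1b, which encodes the inducible TNF receptor, had 25.5 FPKM in Model, 34.3 in ASA, 23.1 in the CUR group and 24.1 in the ASA+CUR group, against 8.76 in Control (1.49 ± 0.15, limma adjusted p = 0.000419). In Model against Control 1 of 16 IL-6 family ligands, receptors and kinases rose, Osmr, beside the same 6.84%. In the mean 3 of the 16 rose and 3 fell (median 0.21), shares close to those of all genes. Osmr, the receptor subunit that binds oncostatin M, rose by 1.43 ± 0.22 (limma adjusted p = 0.00227), and Il11ra1, the receptor of IL-11, fell by 1.11 on the log2 scale (SE 0.24, limma adjusted p = 0.00981), with 13.2 FPKM in Model, 7.93 in ASA, 11.2 in the CUR group and 8.40 in the ASA+CUR group, against 22.6 in Control. The receptor of IL-11 was thus lower, and its ligand higher, in every AOM/DSS library than in both Control libraries. For the receptor, Model replicate 1 (17.4 FPKM) lay near Control replicate 1 (19.2). Its fall was called in ASA and ASA+CUR against Control, and not in Model or CUR.

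Genes listed as targets were read in the same comparison. Of 20 NF-kB targets 12 rose and none fell (median 1.26), and 10 rose in Model against Control, where 6.84% of all genes did. Among them was Cxcl5, a chemokine for neutrophils, at 41.5 FPKM in Model, 96.9 in ASA, 49.8 in the CUR group and 59.5 in the ASA+CUR group, against 0.228 in Control (5.46 ± 0.53, limma adjusted p = 0.000325). Of 14 STAT3 targets 11 rose and 2 fell (median 1.21), and in Model against Control 5 rose and 2 fell. Socs3, the feedback inhibitor of gp130 signalling, rose by 2.71 ± 0.34 (limma adjusted p = 0.000985), and Timp1, a protease inhibitor, by 3.16 ± 0.31 (0.000315). The acute phase genes split: Saa3 rose by 6.32 ± 0.70 (limma adjusted p = 0.000563), while Saa1 fell by 2.26 on the log2 scale (SE 0.32, limma adjusted p = 0.00174).

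Markers of the cell types in the tissue also differed between the groups. Summed neutrophil markers, of which 8 of 9 were in the table, had 104 to 541 FPKM in the AOM/DSS libraries, against 1.5 and 3.86 in Control, where Mmp8 and Ngp were at 0. Summed macrophage and monocyte markers, 11 of 12 in the table, had 327 to 772 FPKM in AOM/DSS, against 157 and 217 in Control. Fibroblast markers (8 of 8) had 532 to 1166 FPKM against 394 and 453, T cell markers (8 of 10) 13.6 to 62.9 against 5.99 and 7.53, and squamous epithelium markers (11 of 11) 27.0 to 964 against 7.27 and 7.40, with Trp63, Sprr3 and Krtdap at 0 in Control. Smooth muscle markers (8 of 8) ran the other way, with 282 to 867 FPKM in AOM/DSS against 5389 and 8864 in Control. The sums do not stand for each marker. In the mean of the 4 AOM/DSS groups, 4 of 7 neutrophil markers tested, 7 of 11 macrophage, 3 of 7 T cell and 7 of 10 squamous markers were called higher. Of all genes tested 14.6% were called higher there and 16.9% lower. Of 8 fibroblast markers 6 were called higher and Lum lower, and in CUR against Control only Pdgfra was higher and Lum lower. All 8 smooth muscle markers were called lower. Mast cell, endothelial and distal colon position markers had summed ranges that overlapped Control, although single markers were called in the mean of the 4 AOM/DSS groups. Of 8 mast cell markers Cma1 and Tpsb2 were higher and Kit lower. Of 7 endothelial markers Cdh5 was higher, and of 5 position markers Hoxa13 was lower. All 9 colon epithelium markers were in the table, summing to 6512 to 14820 FPKM in AOM/DSS and 10090 and 11720 in Control, and of the 9 only Cdx2, lower in ASA+CUR, was called in any comparison with Control. The part of these cell types in the cytokine changes was not tested.

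The comparisons of a diet with Model ask whether aspirin, curcumin or both changed these cytokines in AOM/DSS tissue. No member passed in any of them (limma, adjusted p of 1.0 for all 10 in ASA, 0.934 to 0.981 in the CUR group and 0.484 to 0.868 in ASA+CUR). The share of all genes called was 0.0142% in ASA, 0.00711% in the CUR group and 0.0142% in the ASA+CUR group. At an unadjusted p under 0.05, 3 members were higher in ASA, 2 in the CUR group and 3 in the ASA+CUR group, beside 335, 684 and 1416 of all 14061 genes in either direction. No diet group had a member with both libraries below both Model libraries. The share of all genes lying below Model in this way was not computed, so this describes the members only. The estimates leaned towards higher levels with the diets, above 0 for 9 members in ASA, 8 in the CUR group and 10 in the ASA+CUR group, with medians of 0.82, 0.40 and 0.47 beside -0.01, -0.01 and -0.02 over all genes. These 3 comparisons share the Model libraries.

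For Tnf, Il1a and Il1r2 both libraries of every diet group lay above both Model libraries. The share of all genes doing so in every diet group was not computed, so this too describes the members only. Tnf had 13.1 and 7.30 FPKM in ASA, 9.60 and 7.49 in the CUR group, and 7.12 and 5.19 in ASA+CUR, against 5.11 and 4.04 in Model, so that the gap was small in ASA+CUR. Its log2 difference was 0.96 in ASA (unadjusted 95% interval 0.31 to 1.61), 0.77 in CUR (0.12 to 1.42) and 0.35 in ASA+CUR (-0.30 to 1.0). Il1a differed by 0.94 in ASA (0.19 to 1.69), 0.81 in CUR (0.06 to 1.55) and 0.82 in ASA+CUR (0.07 to 1.56). Il1r2 differed by 0.45 in ASA (-0.01 to 0.92), 0.40 in CUR (-0.06 to 0.86) and 0.48 in ASA+CUR (0.02 to 0.95). In ASA the same held for 7 members in all, with Il1b, Il1rn, Lif and Osm, against 12.8% of all genes. In CUR it held for 3 (12% of all genes), and in ASA+CUR for 5, with Il1rn and Il11 (24.8% of all genes).

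Il6 and Il11 had the widest intervals, while Lif differed from Model by 0.74 in ASA (0.10 to 1.38), 0.31 in CUR (-0.33 to 0.95) and 0.21 in ASA+CUR (-0.43 to 0.85). Il11 differed from Model by 2.25 in ASA+CUR (0.19 to 4.32), 1.38 in ASA (-0.69 to 3.44) and 1.18 in CUR (-0.88 to 3.24), and Il6 by 1.48 in ASA (-0.39 to 3.36), -0.20 in CUR (-2.07 to 1.68) and 0.79 in ASA+CUR (-1.09 to 2.67). With 2 libraries a group, these intervals are too wide to show that the levels were alike. Il33 differed by -0.13 in ASA (-1.37 to 1.12), 0.43 in CUR (-0.81 to 1.67) and 0.24 in ASA+CUR (-1.0 to 1.48). The combination did not separate from its components either. In ASA+CUR against ASA and against CUR no member passed and no gene at all was called (0% of all genes), with 0 members at an unadjusted p under 0.05 in either comparison, beside 399 and 1944 genes. Tnf was lower in both ASA+CUR libraries than in both ASA and both CUR libraries, by 0.61 on the log2 scale (interval of the difference -1.26 to 0.04) and 0.42 (-1.07 to 0.23), and Lif was lower in both ASA+CUR libraries than in both ASA libraries. Of all genes, 18% were lower in this way than in ASA and 24.2% than in CUR. No member was higher in both ASA+CUR libraries, where 20.3% and 24.3% of all genes were. The ASA+CUR diet contained less of both agents than the single-agent diets, so dose and combination cannot be told apart.

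**Figure D4:**
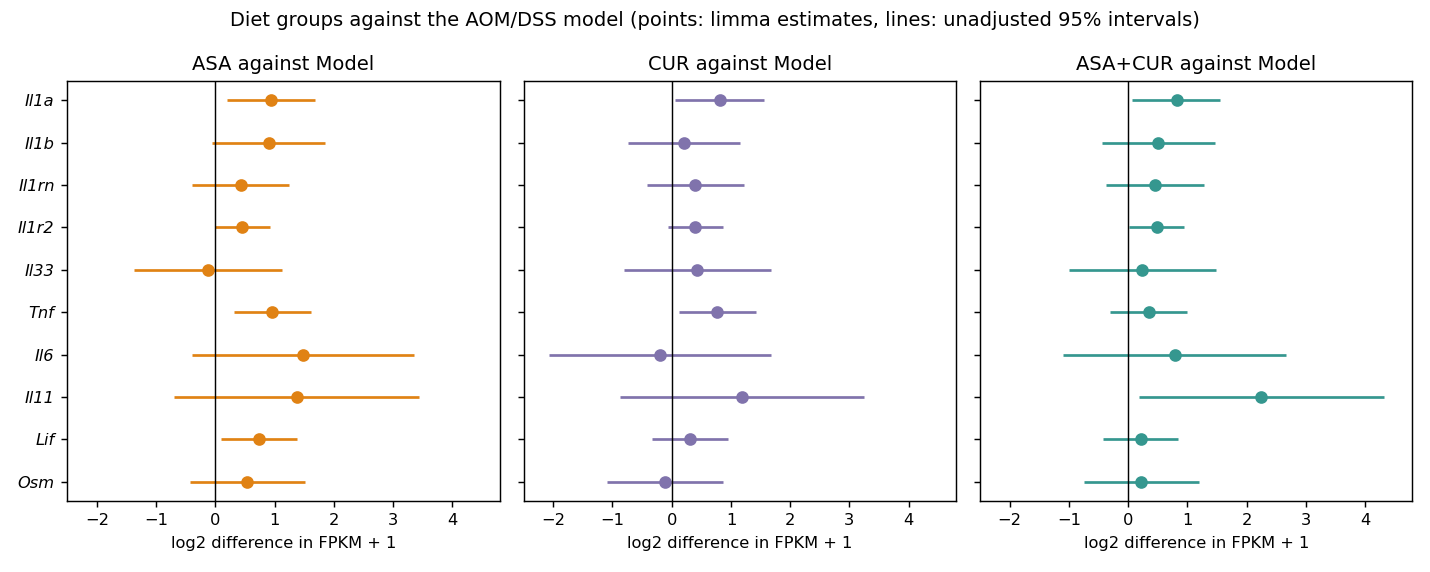
Difference of each diet group from Model on the log2(FPKM + 1) scale (horizontal axis) for ASA, CUR and ASA+CUR; points are limma estimates and lines are unadjusted 95% intervals. Most points lie right of 0, the intervals of Il6 and Il11 are the widest, and no difference passed after adjustment over all genes.

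Neutrophil marker sums were higher in both ASA and both ASA+CUR libraries than in both Model libraries and overlapped Model in the CUR group, with 353 and 541 FPKM in ASA, 104 and 158 in the CUR group, and 400 and 304 in ASA+CUR, against 197 and 110 in Model. None of the 7 neutrophil markers tested passed in any diet against Model. Macrophage sums were 364 and 636 FPKM in ASA, 532 and 396 in the CUR group, and 372 and 327 in ASA+CUR, against 355 and 772 in Model, which overlapped. Their part in the cytokine values of the diet groups was not tested.

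The genes with the profile most like a member's across the 10 libraries were found by the root mean square difference of log2(FPKM + 1) after each gene's mean was taken off. For Il1b, among 1081 genes of like spread, these were Marcksl1 (0.37), Tnfrsf11b (0.41) and Dkk2 (0.42), with Marcksl1 at 172 to 373 FPKM in AOM/DSS libraries, against 14.6 and 18.2 in Control. For Il11, among 665 genes, they were Il1rl1 (0.55), Cemip (0.59) and the chemokine gene Cxcl1 (0.66). For Il33, among 2940 genes, they were Hdc, which encodes the enzyme that makes histamine (0.29), Cers3 (0.31) and Ncmap (0.31). The 10 libraries share the split between AOM/DSS and Control, which sets much of this likeness, so the values describe these profiles only.

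Of the 10 genes, 6 overlap another RefSeq gene on the genome. These are Il1a (Gm14023), Il1b (Il1bos), Il1r2 (Gm16894), Il33 (Gm41832), Il6 (A230098N10Rik) and Il11 (Tmem190). The library kit does not mark strand, so reads of an overlapping partner cannot be told from those of the member. Il1rn, Tnf, Lif and Osm have no such partner.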

How the data were processed

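The 10 members, the lists and the comparisons were chosen with earlier results of these data known. The library kit was the Illumina TruSeq RNA kit v2, per the labels' protocols. The deposited table holds FPKM values per RefSeq transcript for 10 libraries. The submitters' processing notes list Cuffdiff, TopHat2 2.0.9, Bowtie2 2.1.0.0 and bcl2fastq 2.17.1.14, with the builds mm10 and GRCm38. How strand and multi-mapping fragments were handled is not stated there. Cuffdiff divides fragments among the transcripts of a gene by a model, so a 0 may be an estimate that failed.

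Of 30073 transcript rows, 29443 were named through RefSeq (GRCm38.p6) and 179 through GENCODE, and 451 kept their identifiers. FPKM was summed per gene. Genes reaching 1 FPKM in 2 or more libraries, 14061 in all, were tested by limma (version 3.58.1, R 4.3.3) on log2(FPKM + 1), with a variance trend over intensity and the 10 libraries in 1 fit. Tests were two-sided with Benjamini-Hochberg adjustment over all genes tested and a threshold of 0.05. Levels are given per library or as group means, and errors of log2 values are limma's standard errors. All members are described. Other genes are named from 6 pathway lists, up to 4 past the threshold per list and comparison by smallest p, or as the 3 most like Il1b, Il11 and Il33. Fits were checked on simulated data. Depth is unknown, so no counting interval is given.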

Additional observations from a re-analysis of the deposited data

How the results depend on the processing

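Results were recomputed with other pseudocounts, filters, scalings and variance models, the highest transcript in place of the sum, a replicate block, a fit on the compared groups alone (no separate value for the mean of the 4 AOM/DSS groups, which uses all libraries) and with each library left out in turn. In Model against Control, where 7 members passed, 4 passed with no filter on low values and 4 with the replicate block, for which the cause was not tested. With the highest transcript in place of the sum 5 passed. The count was 9, with Il11 and Osm added, with 0.1 or 0.5 added before taking logs. It was also 9 in the fit on the compared groups alone. Leaving out libraries gave 3 to 5 members in Model, 5 to 8 in ASA, 4 to 8 in CUR, 5 to 9 in ASA+CUR and 5 to 10 in the mean of the 4 groups. In that order the counts were 3, 5, 4, 5 and 5 without Control replicate 0. They were 3 in Model without Model replicate 0, 4 in Model and 5 in CUR without Control replicate 1, 4 in CUR without CUR replicate 0, and 5 in ASA+CUR without ASA+CUR replicate 1. Il1b, Il1r2 and Tnf passed each time, and Il1a did so in all but Model. Fewer libraries also lowered the count of all genes called, to between 322 and 1644 in Model, against 2276 with all libraries. In the 5 comparisons among AOM/DSS groups 0 members passed under every setting run. Without CUR replicate 1, ASA+CUR against CUR called 1956 genes and no member. Replicate numbers did not pair the libraries (correlation of deviations -0.214 to 0.326 over 10 pairs of groups). Of the values of single members against Control under these settings, 666 kept direction and call, 67 lost and 14 gained a call, and none changed sign. Single-member values of the comparisons among AOM/DSS groups are not in this count.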
